A study of Mus musculus with 19 samples.

Results

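The Slc25 genes encode the mitochondrial carrier family, and they were followed here in the extensor digitorum longus (EDL), a mouse hind limb muscle made mostly of fast fibres. Members were all genes whose symbol is Slc25a followed by a number, read through probe sets with 1 gene symbol, and each gene was read through its brightest probe set (the highest mean over all samples). This gave 44 of the 18193 genes on the array with such a probe set. Of these, 36 were bright enough to be tested, among 11533 genes tested in all. Membership rests on names only, and the choice of probe set on the mean level over all samples, whatever their group.

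HSALR mice, labelled as transgenic line 20 b, model myotonic dystrophy through a transgene of human skeletal actin that holds an expanded CTG repeat. They were compared with wild-type mice, and both groups were of the FVB strain and 19 weeks old. The transgene is driven by the skeletal actin promoter, so it is a model of the repeat in muscle fibres, and the labels name 1 line of it. There were 10 HSALR and 9 wild-type samples, each on 1 Affymetrix array, and this number limits the precision. Whether each sample is its own animal is not in the labels, so the p-values speak for the spread among these samples alone, and that spread may be technical.

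The inner mitochondrial membrane lets few solutes through, and most proteins of this family carry 1 kind of solute across it, usually in exchange for another. They bring ADP and phosphate in and ATP out, and they move the acids of the citrate cycle, amino acids, acylcarnitines, cofactors and iron. In muscle the ADP/ATP carrier is among the abundant proteins of the mitochondrion. A few relatives sit elsewhere, in the outer mitochondrial membrane or in peroxisomes.

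Levels are given as log2(signal + 16), where the signal is the deposited intensity, so 4 is the floor of the scale and folds of dim genes are understated. The level of 1 probe set cannot be set against that of another. HSALR replicates 9 and 10 were the most alike of any samples (Spearman correlation across probe sets 0.978, where every other sample reached 0.953 to 0.969 with its nearest). Both also stood apart in markers of other cells. The 14 macrophage markers summed to a signal of 20071 and 22546 in these replicates, of 3425 to 9589 in the remaining 8 HSALR samples and of 4029 to 6571 in wild type. The mean log2 level of 8 fibroblast markers was 12.58 and 12.59 in them, 10.23 to 11.63 in the remaining HSALR samples and 10.43 to 11.24 in wild type. The labelled tissue was checked through 8 fast muscle markers, all well above the floor, whose summed signal was 99242 to 116700 in HSALR and 104260 to 120340 in wild type. None of 8 slow muscle markers passed in limma, with a median log2 fold of -0.56 and a summed signal of 3898 to 17561 in HSALR and 3729 to 30122 in wild type. Among them Tnnc1, the slow troponin C, was below the wild-type median in all 10 HSALR samples (log2 fold -0.74 ± 0.47, adjusted p = 0.388 in limma). The mean log2 3'/5' ratio of the actin and Gapdh controls, a sign of RNA quality, had a median of -0.11 in HSALR and -0.06 in wild type. The part of the slow fibre markers in the carrier results was not tested. RNA quality entered only through the 3'/5' ratio, as a covariate in an alternative fit, and its part beyond that was not tested. In that fit Slc25a5, Slc25a24 and Slc25a10 were past the threshold in limma. Slc25a17 and Slc25a32 also passed there as higher and Slc25a26 as lower. Over the whole array that fit called 1705 probe sets higher and 464 lower, against 645 and 495 without the ratio. In bulk tissue, fewer cells of a type and less RNA per cell cannot be told apart.

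3 carriers rose in HSALR muscle and none fell at a false discovery rate of 0.05 in limma. They were Slc25a5, an ADP/ATP carrier of many tissues, Slc25a24, a calcium-regulated carrier of ATP-Mg and phosphate, and Slc25a10, the dicarboxylate carrier. These are 8.33% of the 36 tested members, against 5.42% of all genes tested (3.11% higher and 2.31% lower). Before adjustment, at p under 0.05, 5 members were higher and 5 lower, and over all genes 13.8% were higher and 7.47% lower by that measure. The median log2 fold of the members, HSALR over wild type, was 0.02, against 0.05 for all genes tested, and 22 of 36 members had a fold above 0. In 0 of the 36 did the groups separate completely, against 0.434% of all genes with every HSALR sample above wild type and 0.295% with every one below.

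After quantile normalization 5 members were higher and 4 lower, against a background of 7.08% higher and 8.39% lower. The rises of Slc25a17 and Slc25a32 and the falls of Slc25a22, Slc25a28, Slc25a38 and Slc25a51 were past the threshold there and not as deposited. This scaling moved the median of all genes to -0.004 and that of the members to -0.04. When arrays were centred on their medians, 5 were higher and 3 lower, against 6.57% and 6.81% of all genes. Without HSALR replicates 9 and 10, 2 were higher and 0 lower as deposited (2.09% and 1.84% of all genes), and 3 were higher and 4 lower with quantile normalization as well (5.76% and 6.09%).

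**Figure D1:**
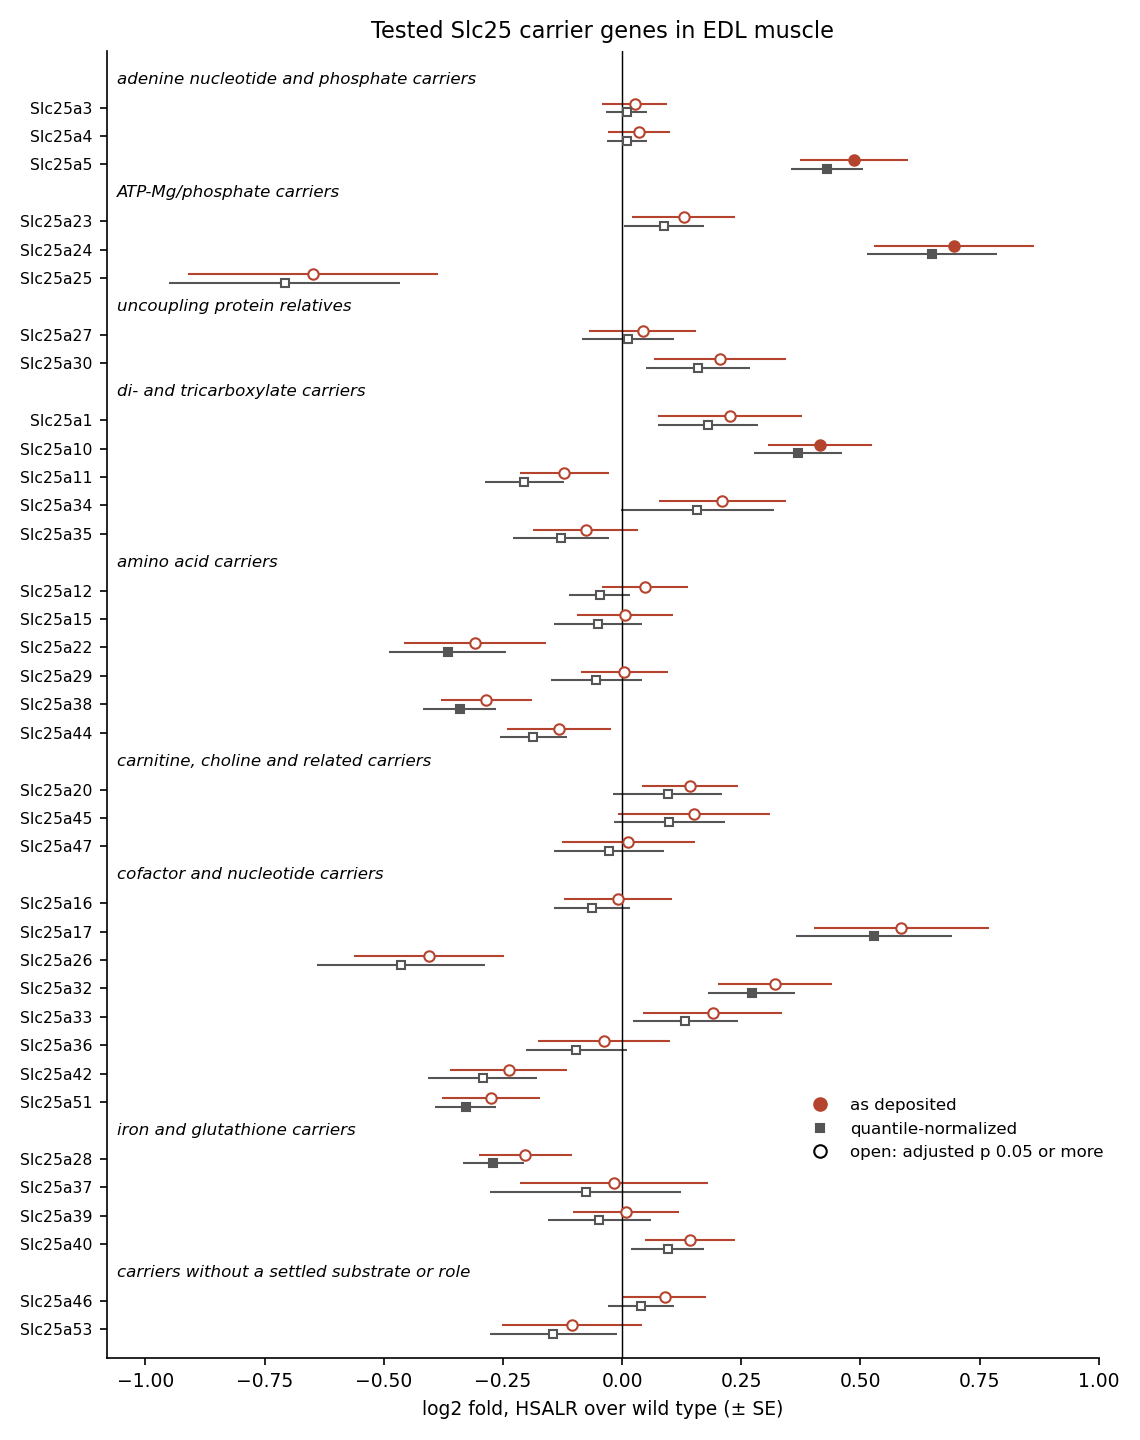
Log2 fold of HSALR over wild type (x axis, with SE) for the 36 tested carriers grouped by role, as deposited (circles) and after quantile normalization (squares), with filled symbols past the threshold. Slc25a24, Slc25a5 and Slc25a10 stand to the right with both symbols filled, and Slc25a25 lies farthest to the left with both open.

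The promoters of the 3 carriers that rose, and of the ADP/ATP carrier of muscle Slc25a4 beside them, are shown to describe the sequence just upstream. They are reference sequences without any reading per group, and their part in the levels was not tested. Each is the 150 bases before the annotated start from RefSeq (build GRCm38.p6), written 5′ to 3′ on the gene's strand, with capitals marking a GC box, the motif GGGCGG on either strand (CCGCCC). Slc25a5 lies at chrX:36795447-36795596 on the plus strand, Slc25a24 at chr3:109122999-109123148 on the plus strand, Slc25a10 at chr11:120491687-120491836 on the plus strand and Slc25a4 at chr8:46211063-46211212 on the minus strand.
Slc25a5: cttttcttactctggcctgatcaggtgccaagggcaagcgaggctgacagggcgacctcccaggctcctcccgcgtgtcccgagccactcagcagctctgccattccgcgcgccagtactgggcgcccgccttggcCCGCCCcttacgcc
Slc25a24: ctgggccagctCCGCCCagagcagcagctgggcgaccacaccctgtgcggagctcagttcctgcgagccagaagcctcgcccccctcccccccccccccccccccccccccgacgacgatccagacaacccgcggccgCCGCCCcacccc
Slc25a10: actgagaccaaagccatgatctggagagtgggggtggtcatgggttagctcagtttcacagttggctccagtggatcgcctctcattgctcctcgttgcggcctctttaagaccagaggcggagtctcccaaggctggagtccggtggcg
Slc25a4: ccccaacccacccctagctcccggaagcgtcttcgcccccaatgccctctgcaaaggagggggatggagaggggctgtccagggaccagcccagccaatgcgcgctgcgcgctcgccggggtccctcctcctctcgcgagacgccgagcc
The GC content was 68% in Slc25a5, 77.3% in Slc25a24, 58% in Slc25a10 and 71.3% in Slc25a4. A GC box was found once in Slc25a5 and at 2 places in Slc25a24, and these letters were not in the windows of Slc25a10 and Slc25a4. Among 27025 RefSeq promoters, 29% held a GC box in this window, and among 34 members with such a sequence 21 did. TATAAA on either strand was in 1 of the 34 members and in 8.08% of all promoters, and CCAAT in 13 members and 25.3% of all. These matches describe the letters only and are not binding sites.

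Among the carriers of adenine nucleotides and phosphate, Slc25a5 had a lowest, median and highest level of 10.54, 10.92 and 11.38 in HSALR muscle and of 10.26, 10.48 and 10.64 in wild type. All 10 HSALR samples lay above the wild-type median and 7 above every wild-type sample. Slc25a5 rose (log2 fold 0.49 ± 0.11, SE, n = 10 against 9, limma adjusted p = 0.0119). HSALR replicates 9 and 10 were at 11.23 and 11.38, and the other 8 at 10.54 to 11.23. Without both of them the log2 fold of Slc25a5 was 0.39 ± 0.11 (limma adjusted p = 0.0433), and after quantile normalization of all samples it was 0.43 (limma adjusted p = 0.000755).

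All 8 probe sets of Slc25a5 had a log2 fold above 0, between 0.17 and 0.58, and 3 of them passed as deposited, where 5.06% of all tested probe sets did. The brightest one ends in _x_at, a suffix that marks probes able to read other transcripts of near sequence, so its signal may hold more than Slc25a5. Probe set 1430542_a_at, without that suffix, rose by 0.42 ± 0.12 (limma adjusted p = 0.0392), and 1438545_at, also without it, showed a log2 fold of 0.17 ± 0.12 (adjusted p = 0.461 in limma).

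The main ADP/ATP and phosphate carriers of muscle mitochondria did not pass. Slc25a4, the ADP/ATP carrier that predominates in heart and skeletal muscle, was at 13.62, 13.73 and 13.80 in HSALR muscle and at 13.62, 13.69 and 13.82 in wild type (lowest, median and highest). The groups covered the same range, with a log2 fold of 0.04 ± 0.07 (95% interval -0.10 to 0.17, limma adjusted p = 0.808). Slc25a3, which carries phosphate into the matrix, had a log2 fold of 0.03 ± 0.07 (95% interval -0.12 to 0.17, limma adjusted p = 0.865). With arrays centred on their median both folds took the opposite sign (-0.02 and -0.03). The signal of Slc25a4 was 79.3% to 92.8% of the highest on its array and that of Slc25a3 67.6% to 78.6%, a range in which arrays can flatten differences, and these values do not show that the level was the same. The other bright probe sets of Slc25a4, 1455069_x_at and 1434897_a_at, each had a log2 fold of -0.01. Its dimmer one, 1424563_at, had -0.14 ± 0.12 (limma adjusted p = 0.562). The dimmer probe set of Slc25a3, 1440302_at, had -0.11 ± 0.19 (limma adjusted p = 0.796). Slc25a31, the testis form of the ADP/ATP carrier, was below the limit for testing.

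**Figure D2:**
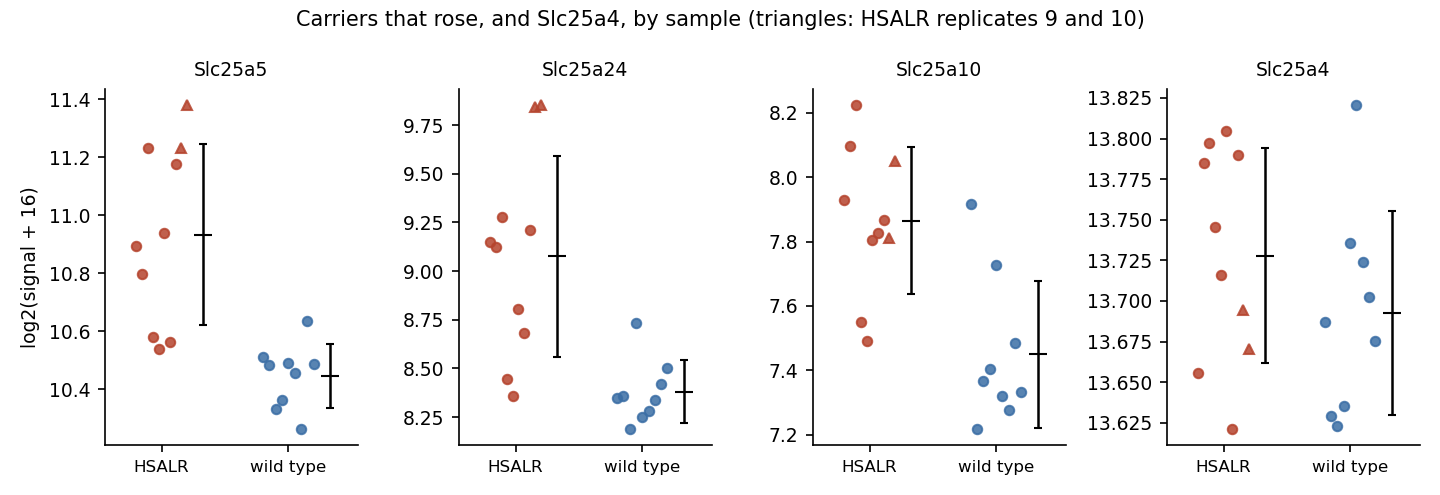
Level as log2(signal + 16) (y axis, a separate range in each panel) of Slc25a5, Slc25a24, Slc25a10 and Slc25a4 in each HSALR and wild-type sample, with bars for mean and SD and triangles for HSALR replicates 9 and 10. The first 3 carriers are higher in HSALR on average with some overlap, and the groups of Slc25a4 cover the same range.

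The ATP-Mg and phosphate carriers shift the matrix pool of adenine nucleotides, and several of them, Slc25a24 included, are opened by calcium on the outer side of the membrane. Slc25a24 was at 8.36, 9.14 and 9.85 in HSALR muscle and at 8.19, 8.35 and 8.73 in wild type (lowest, median and highest). 7 HSALR samples were above the whole wild-type range. Slc25a24 rose 1.62-fold (log2 fold 0.70 ± 0.17, limma adjusted p = 0.0154), the largest fold among the 3 carriers that rose. HSALR replicates 9 and 10 were both at 9.85, above the 8.36 to 9.28 of the other 8, and without them the log2 fold was 0.50 ± 0.13 (limma adjusted p = 0.0321). The dimmer probe set of Slc25a24 showed a log2 fold of 0.49 ± 0.17 (adjusted p = 0.0889 in limma).

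Slc25a25, a close relative of Slc25a24, was at 8.83, 9.28 and 10.21 in HSALR muscle and at 8.61, 10.18 and 11.18 in wild type. 9 of 10 HSALR samples lay below the wild-type median, but the wild-type samples spread widely and the groups overlapped. Its log2 fold was -0.65 ± 0.26 (95% interval -1.19 to -0.10), which missed the threshold (limma adjusted p = 0.162). Without HSALR replicates 9 and 10, which were at 10.17 and 10.21, it was -0.84 (limma adjusted p = 0.0748), and -0.85 (0.0349) with quantile normalization as well. It also passed without wild-type replicate 7 (log2 fold -0.83, limma adjusted p = 0.0399). The other probe sets of Slc25a25 had log2 folds of 0.07 and 0.03, and the mean of all 3 had -0.18 (limma adjusted p = 0.632). Slc25a23, the third tested carrier of this kind, showed a log2 fold of 0.13 ± 0.11 (adjusted p = 0.537 in limma), and Slc25a41 and Slc25a54 were below the limit for testing.

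Among the carriers of di- and tricarboxylates, 1 of 5 tested members passed. Slc25a10 exchanges malate or succinate for phosphate. It was at 7.49, 7.85 and 8.22 in HSALR muscle and at 7.22, 7.37 and 7.92 in wild type. All 10 HSALR samples lay above the wild-type median but only 4 above every wild-type sample. Slc25a10 rose 1.33-fold (log2 fold 0.42 ± 0.11, limma adjusted p = 0.0268), and after quantile normalization the log2 fold was 0.37 (limma adjusted p = 0.0108). Without HSALR replicates 9 and 10, which were at 7.81 and 8.05, its log2 fold was 0.40 but it missed the threshold (limma adjusted p = 0.0684). It also missed it without a filter on dim probe sets (limma adjusted p = 0.0527) and in 7 of the 19 fits that left out 1 sample, those without wild-type replicates 2, 3, 6, 7 and 9 and HSALR replicates 2 and 3 (limma adjusted p up to 0.0589). With the mean of its probe sets in place of the brightest its log2 fold was 0.27 (limma adjusted p = 0.189). Slc25a11, which carries oxoglutarate against malate in the malate-aspartate shuttle, had a log2 fold of -0.12 ± 0.09 (95% interval -0.32 to 0.07, limma adjusted p = 0.498). Slc25a1, the citrate carrier, had 0.23, and Slc25a34 and Slc25a35, named in the family by sequence, had 0.21 and -0.08, and these 3 also missed the threshold.

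Markers of other cells were read beside the carriers that rose. In replicates 9 and 10, where the macrophage markers were highest, Slc25a24 was above all other samples, Slc25a5 was at or near the top, and Slc25a10 was within the range of the other HSALR samples. Over all genes tested 3.11% rose, with a median log2 fold of 0.05. Of the 13 tested macrophage markers, 2 rose, Cd68 (log2 fold 1.00 ± 0.24) and Lgals3 (1.27 ± 0.35), and the median log2 fold of the list was 0.66. Their mean log2 level was 7.48 to 10.11 in HSALR muscle and 7.74 to 8.39 in wild type, and without replicates 9 and 10 the highest HSALR sample was at 8.95. Of 8 fibroblast markers 1 rose, Pdgfra (0.74 ± 0.20). Of 3 tested fat cell markers 2 rose, Adipoq (1.58 ± 0.41) and Retn (0.69 ± 0.16). The summed signal of the fibroblast markers was 16601 to 61245 in HSALR and 19804 to 32945 in wild type. That of the 5 fat cell markers with a probe set, of which Lep and Cidec were below the limit for testing, was 5256 to 8992 in HSALR and 5616 to 7051 in wild type. Their part in the rise of Slc25a5, Slc25a24 and Slc25a10 was not tested.

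**Figure D3:**
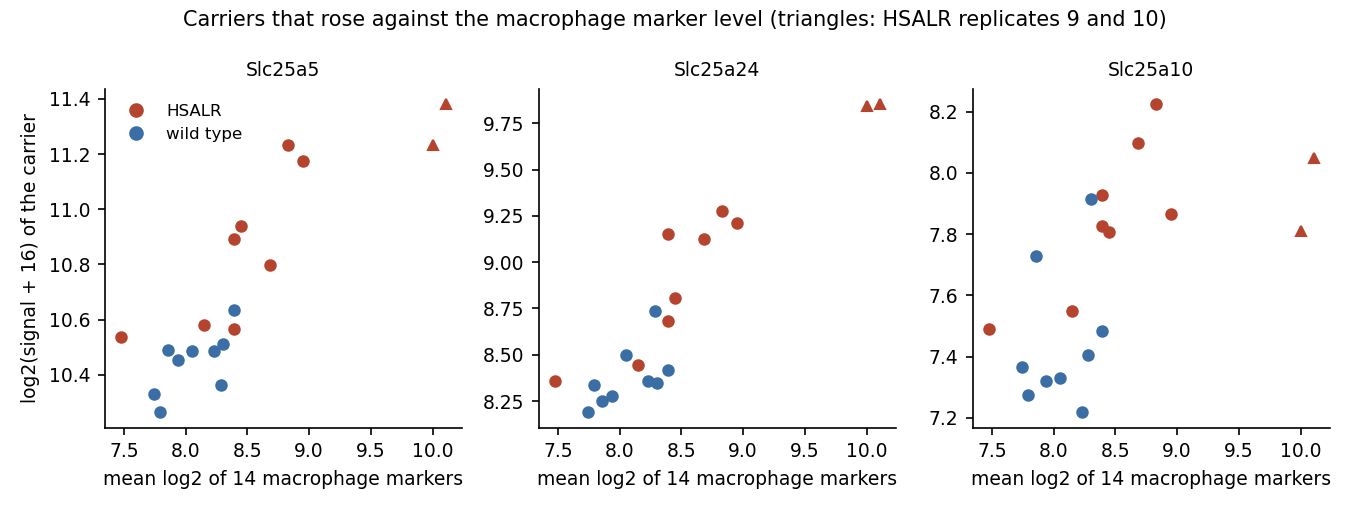
Level of Slc25a5, Slc25a24 and Slc25a10 as log2(signal + 16) (y axes) against the mean log2 level of 14 macrophage markers (x axes) in each HSALR and wild-type sample, with triangles for HSALR replicates 9 and 10. These 2 samples lie far to the right of all others, with the highest Slc25a24 and a Slc25a10 inside the range of the other HSALR samples.

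None of the 6 tested amino acid carriers passed as deposited. Slc25a12 exchanges aspartate for glutamate in the malate-aspartate shuttle of muscle and brain. Its brightest probe set, 1428440_at, had a log2 fold of 0.05 ± 0.09 (95% interval -0.14 to 0.23, limma adjusted p = 0.808), and this fold turned to -0.05 after quantile normalization. The 3 probe sets of Slc25a12 gave different values, a comparison singled out after the values were seen.

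Probe set 1436440_at was at 9.63, 9.92 and 10.21 in HSALR muscle and at 10.25, 10.35 and 10.55 in wild type. All 10 HSALR samples lay below every wild-type sample, as in 0.289% of all tested probe sets. It fell by 0.45 on the log2 scale (SE 0.09, limma adjusted p = 0.00367), and its log2 fold was -0.50 after quantile normalization (limma adjusted p = 0.000382). Within each array the log2 of 1436440_at minus that of 1428440_at lay at -2.71, -2.46 and -2.09 in HSALR muscle and at -2.08, -1.96 and -1.84 in wild type. The third, 1444489_at, showed a log2 fold of 0.12 ± 0.10 (adjusted p = 0.528 in limma).

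Probe sets of a gene were compared with limma's diffSplice over the 4782 genes with several tested probe sets. Slc25a12 was the only one of 16 such carriers to pass (adjusted p = 0.00392), against 1.9% of all genes tested in this way. Probe set 1436440_at lay -0.53 on the log2 scale against the others of the gene. Without HSALR replicates 9 and 10 the adjusted p was 0.0439. Which stretch of the transcript each probe set reads is not given in the sources used here.

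**Figure D4:**
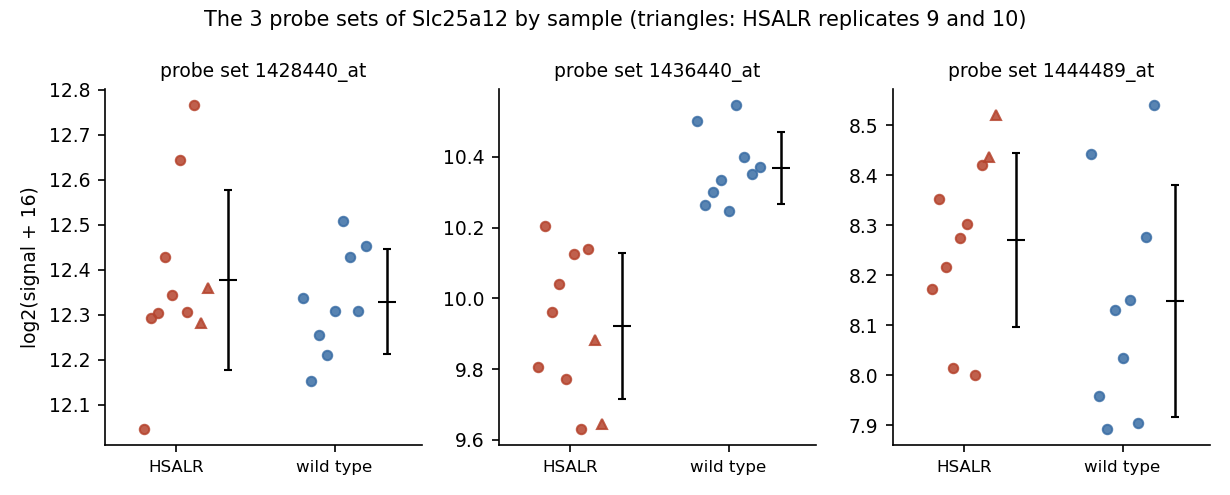
Level as log2(signal + 16) (y axis, a separate range in each panel) of the 3 probe sets of Slc25a12 in each HSALR and wild-type sample, with bars for mean and SD and triangles for HSALR replicates 9 and 10. In 1436440_at every HSALR sample lies below every wild-type sample, and in the other probe sets the groups overlap.

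Slc25a38, which carries glycine for haem synthesis, was at 7.82, 8.13 and 8.62 in HSALR muscle and at 8.27, 8.42 and 8.70 in wild type. 8 HSALR samples lay below every wild-type sample. As deposited it missed the threshold (log2 fold -0.28 ± 0.10, limma adjusted p = 0.0886), and in the quantile-normalized values it fell (-0.34, limma adjusted p = 0.00477). It also passed as deposited without HSALR replicate 8 (-0.33, limma adjusted p = 0.024). Slc25a22, a glutamate carrier, was at 7.80, 8.29 and 8.77 in HSALR muscle and at 8.12, 8.63 and 9.04 in wild type, with 3 HSALR samples below all wild-type ones. It showed a log2 fold of -0.31 ± 0.15 (adjusted p = 0.244 in limma), and quantile normalization brought it narrowly past the threshold (-0.37, limma adjusted p = 0.0492), but not when replicates 9 and 10 were also left out (0.0945). Slc25a15 and Slc25a29, carriers of ornithine and of basic amino acids, both had a log2 fold of 0.01, and Slc25a44, a carrier of branched-chain amino acids, had -0.13. Slc25a2, Slc25a13 and Slc25a18 were below the limit for testing.

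The cofactor and nucleotide carriers varied in direction. None of the 8 passed as deposited, with log2 folds from -0.40 to 0.59, and after quantile normalization 2 were higher and 1 lower. Slc25a17, a peroxisomal member that carries coenzyme A and NAD, was at 5.92, 6.52 and 7.46 in HSALR muscle and at 5.70, 5.95 and 6.40 in wild type. 6 HSALR samples were above the whole wild-type range, and the 2 highest were replicates 9 and 10, at 7.41 and 7.46. Its log2 fold was 0.59 ± 0.18 as deposited (limma adjusted p = 0.0655) and 0.53 after quantile normalization (limma adjusted p = 0.0334). Without replicates 9 and 10 it was 0.38 as deposited (limma adjusted p = 0.183) and the call after quantile normalization was lost (0.101). The dimmer probe set of Slc25a17, below the limit for testing, had a log2 fold of -0.34 ± 0.23 when all probe sets were fitted, with 8 of 10 HSALR samples below the wild-type median. With the mean of both in place of the brightest the log2 fold was 0.12 (limma adjusted p = 0.694). It passed as deposited without HSALR replicate 1 (log2 fold 0.65, limma adjusted p = 0.0443) and without HSALR replicate 5 (0.66, limma adjusted p = 0.0223).

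Slc25a32, which carries folate or flavin nucleotides, followed a similar course. It was at 6.17, 6.53 and 7.19 in HSALR muscle and at 6.04, 6.27 and 6.51 in wild type, and replicates 9 and 10 were again the highest, at 7.19 and 7.09. As deposited its log2 fold was 0.32 ± 0.12 (limma adjusted p = 0.123). It passed in the quantile-normalized values (0.27, limma adjusted p = 0.0483) and did not when replicates 9 and 10 were also left out (0.132). As deposited it passed without HSALR replicate 5 (0.37, limma adjusted p = 0.0456). Its other probe sets had log2 folds of 0.22 and, below the limit for testing, -0.08, and with the mean of all 3 the log2 fold was 0.15 (limma adjusted p = 0.391).

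Slc25a51, which carries NAD into mitochondria, was lower in HSALR muscle after quantile normalization. Its level was 9.71, 10.15 and 10.44 in HSALR muscle and 10.15, 10.40 and 10.63 in wild type, with 5 HSALR samples below every wild-type sample. The log2 fold was -0.27 ± 0.10 as deposited (limma adjusted p = 0.123) and -0.33 after quantile normalization (limma adjusted p = 0.00172). Without replicates 9 and 10 it was -0.35 in both scalings, with a limma adjusted p of 0.0685 as deposited and 0.00214 after quantile normalization. The 2 dimmer probe sets of Slc25a51 had log2 folds of -0.07 and 0.11, and the mean of all 3 had -0.08 (limma adjusted p = 0.737). Slc25a26, which carries S-adenosylmethionine, showed a log2 fold of -0.40 ± 0.16 (adjusted p = 0.143 in limma) and passed in 1 setting, with the 3'/5' signal of control probe sets as a covariate. It is named after its values were seen, and its lowest samples, at 7.38 and 7.43, were HSALR replicates 9 and 10. The carriers of coenzyme A, Slc25a16 and Slc25a42, had -0.01 and -0.24, and the pyrimidine nucleotide carriers Slc25a33 and Slc25a36 had 0.19 and -0.04.

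**Figure D5:**
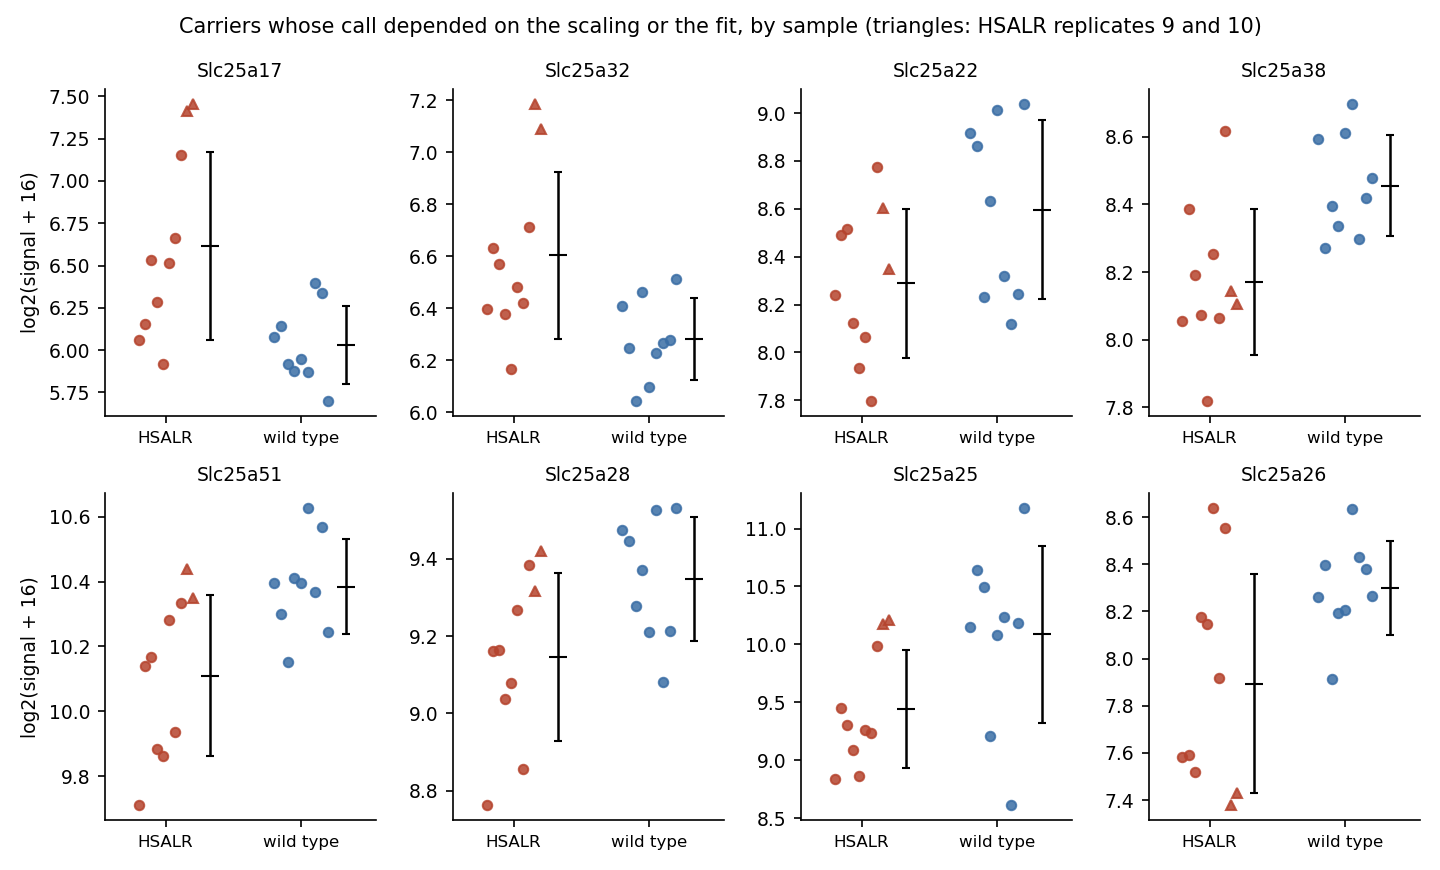
Level as log2(signal + 16) as deposited (y axis, a separate range in each panel) of 8 carriers that passed under another scaling or fit but not as deposited, in each HSALR and wild-type sample, with bars for mean and SD and triangles for HSALR replicates 9 and 10. These 2 samples are the highest for Slc25a17 and Slc25a32 and the lowest for Slc25a26, and the groups overlap in all 8.

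Of the 4 iron and glutathione carriers none passed as deposited. Slc25a28, the mitoferrin of most tissues, was at 8.76, 9.16 and 9.42 in HSALR muscle and at 9.08, 9.37 and 9.53 in wild type. 4 HSALR samples lay below all wild-type samples. It had a log2 fold of -0.20 ± 0.10 as deposited (limma adjusted p = 0.241), and it fell in the quantile-normalized values (-0.27, limma adjusted p = 0.00794). Slc25a37, the mitoferrin of developing red blood cells, had a log2 fold of -0.02 ± 0.20 (95% interval -0.43 to 0.39, limma adjusted p = 0.974), whose sign changed between settings. Alas2, the haem synthesis enzyme of red cells, spread widely too (log2 fold -0.73 ± 0.52, limma adjusted p = 0.452), and its part in the levels of Slc25a37 was not tested. Slc25a39, which carries glutathione, and its relative Slc25a40 had log2 folds of 0.01 and 0.14.

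Slc25a20 carries acylcarnitines into the matrix for fatty acid oxidation. Its log2 fold was 0.14 ± 0.10 (95% interval -0.06 to 0.35, limma adjusted p = 0.443). The other probe set of Slc25a20, 1423109_s_at, had the opposite sign, -0.12 ± 0.09 (limma adjusted p = 0.488). Slc25a45 and Slc25a47, relatives of Slc25a20, had log2 folds of 0.15 and 0.01. The uncoupling protein relatives Slc25a27 and Slc25a30 had 0.04 and 0.21. Slc25a46, a protein of the outer mitochondrial membrane, had 0.09, and Slc25a53, whose substrate is not settled, had -0.11. None of these passed as deposited or after quantile normalization.

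The 8 members below the limit for testing were Slc25a2, Slc25a13, Slc25a14, Slc25a18, Slc25a31, Slc25a41, Slc25a48 and Slc25a54, with mean levels of 4.27 to 5.94. When all probe sets were fitted without a filter, none of these passed (limma adjusted p 0.485 to 0.983), and 2 of the 44 members did, Slc25a5 and Slc25a24, against 2.69% of all genes.

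Genes outside the symbol rule were read for context. Members of the same protein family under other symbols missed the threshold. Ucp3, the uncoupling protein of skeletal muscle, showed a log2 fold of 0.29 ± 0.18 (adjusted p = 0.396 in limma), and the outer membrane proteins Mtch1 and Mtch2 had 0.21 ± 0.19 and 0.09 ± 0.15 (limma adjusted p = 0.58 and 0.79). Ucp1, the uncoupling protein of brown fat, was at 4.32 to 5.43 in HSALR and at 4.22 to 5.69 in wild type, near the floor.

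The carriers are brought to the inner membrane by a set of import proteins. Over all genes tested 3.11% rose and 2.31% fell, and of 11 import proteins 1 rose and 0 fell. This was Tomm20, a receptor of the outer membrane, at 12.78, 13.02 and 13.25 in HSALR muscle and at 12.47, 12.64 and 12.84 in wild type. 8 of 10 HSALR samples were above the whole wild-type range, and its log2 fold was 0.35 ± 0.08 (limma adjusted p = 0.0131). Of 15 other transporters and channels of the mitochondrial membranes 2 rose and 0 fell, beside the same shares of all genes. Tspo, an outer membrane protein, rose by 0.52 ± 0.12 (log2, limma adjusted p = 0.0107) and Micu2, a regulator of the calcium uniporter, by 0.41 ± 0.11 (limma adjusted p = 0.0373). The call of Micu2 was lost in 14 of the 19 fits without 1 sample (limma adjusted p up to 0.0727) and without HSALR replicates 9 and 10 (log2 fold 0.32, limma adjusted p = 0.128). After quantile normalization Smdt1, another subunit of that uniporter, was lower by test (-0.22, limma adjusted p = 0.0111).

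Enzymes that work with the carriers did not pass as deposited. Past the threshold were 0 of 4 enzymes of the malate-aspartate shuttle and 0 of 3 of the carnitine cycle. The counts were 0 of 11 for subunits of ATP synthase and its inhibitor, and 0 of 10 for markers of mitochondrial content. Of all genes tested 5.42% passed. The median log2 fold was 0.01, -0.16, 0.03 and 0.06 in these lists, against 0.05 for all genes. After quantile normalization Crat, carnitine acetyltransferase, was lower (-0.31 on the log2 scale, limma adjusted p = 0.0153).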

How the data were processed

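Biotinylated cRNA made from total RNA was read on 1-colour arrays, per the labels' protocols. Each array was deposited as linear intensities of 45101 probe sets. The submitters' processing notes name GCOS 1.4, and no source used here states the algorithm or scaling. Intensities were used as log2(value + 16) as deposited, with 64 control probe sets left out, and the 22519 probe sets with a mean at or above the median (6.09) were tested. The 2-sided test of HSALR against wild type was lmFit with eBayes from limma 3.58.1 (R 4.3.3), with Benjamini-Hochberg adjustment over all probe sets tested. Quantile normalization used the tested probe sets. In simulated data with independent noise for each probe set, the fit called 35 of 50 changes of 1.5-fold and 47 of 50 of 2-fold. Changes of this size or smaller can therefore be missed, and shifts of whole arrays were not simulated.

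Full statistics are given for each carrier past the threshold in either scaling and for 7 main carriers whatever their result, and for up to 4 genes past the threshold per pathway list. Members follow from the symbol rule, but the family and the lists were chosen with earlier results of these data known. Symbols are from the platform annotation, and 932 probe sets with several symbols were left out. Alternatives were other pseudocounts, filters, scalings, variance models, a 3'/5' covariate, a replicate block, the mean of a gene's probe sets, and samples left out or averaged. Over the tested probe sets, same-numbered samples did not deviate together (9 pairs, correlations -0.24 to 0.13), so numbers were not taken as pairs. Probe set 1423981_x_at of Slc25a29 stepped down in both groups. It was at 5.15 and 5.12 in wild-type replicates 8 and 9 and at 5.65, 5.38 and 5.02 in HSALR replicates 8 to 10. Every other sample was at 6.70 to 7.73, so later numbers can share a step that such correlations miss. Its cause was not tested. Plots used Python 3.11.15 and matplotlib 3.10.9.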

Additional observations from a re-analysis of the deposited data

Results flagged for a closer look

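A sample far from the others of its group was seen in 2 of 46 groups examined, over 23 genes, and chance gives about 1 in 20. Slc25a3, the phosphate carrier, was at 13.63 in wild type replicate 6, apart from the next wild-type sample at 13.50 and the lowest at 13.41 (log2 signal). Ucp3, the uncoupling protein of skeletal muscle, was at 10.73 in wild type replicate 9, apart from the next wild-type sample at 10.01 and the lowest at 9.67.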

How the results depend on the processing

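Of 718 values for single genes over the alternatives, 642 kept their direction and side of the threshold, 25 passed it only under the alternative, 30 lost it and 21 changed sign. Slc25a5 and Slc25a24 passed in all 14 alternative settings and in all 19 fits without 1 sample, and Slc25a10 in 10 and 12 of these. The number of carriers past the threshold (3 higher, 0 lower) became 9 after quantile normalization (5 higher, 4 lower), 8 with arrays centred (5 and 3), 5 with array weights (5 and 0), 6 with a covariate for the 3'/5' signal, lower in median in HSALR (5 and 1), and 7 without HSALR replicates 9 and 10 and with quantile normalization (3 and 4). Leaving out 1 sample gave 2 to 5 carriers in all, 2 to 5 higher and 0 to 1 lower, with the highest count without HSALR replicate 5, where Slc25a17 and Slc25a32 also passed, and 1 lower without wild-type replicate 7 (Slc25a25) or HSALR replicate 8 (Slc25a38). The probe sets past the threshold over the whole array (1140) became 3340, 2937, 2878, 2169 and 2490 in these 5 settings, and 858 to 2067 without 1 sample. The pathway lists held 3 genes past the threshold, 5 after quantile normalization, 6 without replicates 9 and 10 and with quantile normalization, and 2 to 3 without 1 sample.

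With the replicate block, which leaves out HSALR replicate 10, Slc25a5 and Slc25a24 were higher and 1 carrier, Slc25a25, was lower, with 716 probe sets over the whole array and 1 gene of the pathway lists, and the calls of Slc25a10 (adjusted p = 0.107 in limma), Tomm20 (0.0689) and Micu2 (0.0937) were lost. Of 18 samples 4 correlated best with their own number.

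Folds near 0 changed sign. Slc25a12 turned to -0.047 (quantile), -0.0053 (centred), -0.0028 (replicates 9 and 10 left out, with quantile) and -0.092 (mean of its probe sets). Slc25a4 turned to -0.018 and Slc25a3 to -0.027 when centred, and to -0.029 and -0.042 with the mean of their probe sets. Slc25a37 turned to 0.020 with the replicate block, 0.16 with array weights, 0.018 with replicates 9 and 10 averaged, 0.060 without them and 0.059 without them with quantile normalization, and ranged from -0.14 to 0.093 without 1 sample. The cause was not tested. Probe set 1436440_at of Slc25a12 kept its call under every alternative run, with log2 folds from -0.36 to -0.50, and without 1 sample from -0.41 to -0.48. Signals near the floor or the top of the arrays limit what dim carriers and Slc25a4 and Slc25a3 can show.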
